A study of Mus musculus with 18 samples.

Results

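The 10 genes described here make up the core of the cytotoxic lymphocyte program: Prf1, Gzma, Gzmb, Gzmk, Nkg7, Ctsw, Ncr1, Eomes, Tbx21 and Ccl5. They were chosen by gene symbol from the 54232 genes of the raw count table, with no measured value in the rule, and each symbol matched 1 gene. Bulk RNA-seq had been made from the lacrimal glands (LGs) of 18 untreated male mice, with 1 LG from 1 mouse per library. The 6 groups of 3 mice were BALB/c (BALB/cJ) mice, the controls, aged 2, 4 or 6 months (2M, 4M and 6M), and NOD.H-2b (NOD.B10Sn-H2b/J) mice at the same ages. NOD.H-2b is a mouse model of primary Sjögren's syndrome, a disease in which lymphocytes enter the tear and saliva glands. It carries the H2b haplotype of C57BL/10SnJ mice on the NOD background. The controls are another inbred strain, so disease and genetic background cannot be told apart in a strain comparison.

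Killer lymphocytes, which include natural killer (NK) cells and CD8 T cells, store toxic proteins in granules and release them onto a target cell. Perforin opens the target cell's membrane, and granzymes, which are proteases, enter and cut proteins inside it. T-box transcription factors switch on much of this program, and such cells also secrete chemokines that draw in other leukocytes.

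All 10 genes were higher in NOD.H-2b than in BALB/c LGs at 2M and on average over the 3 ages, with Gzma not called at 4M and Gzmb too low to be tested at 4M and 6M. The transcripts were scarce in both strains, and several BALB/c groups held a handful of reads or none. Within NOD.H-2b mice 3 of the 10, Gzmk, Nkg7 and Ctsw, rose from 2M to 6M, a count that ran from 0 to 7 when 1 mouse was left out. Gzma and Gzmb had fitted changes near 0 over the same interval. Relative to T cell receptor complex genes in the same libraries, all 10 were lower at 4M and 6M than at 2M. Those reference genes rose more than any of the 10, and this comparison was added after the data were seen. Relative to NK receptor genes, 1 was lower and 3 were higher in the older mice at a p under 0.05 (exact permutation test).

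Libraries held 49480781 to 103936830 counts, and the chi-square per gene between replicates, 17.7 to 91.1, exceeded counting error. A few libraries stood apart in these genes. BALB/c 4M replicate 3 had the highest level of its group for 9 of the 10 genes, at 0.87 above the group mean on average on the log2(CPM + 0.1) scale, where CPM is the count scaled to library size. Among 2M NOD.H-2b mice, replicate 2 was highest for 8 genes and replicate 1 lowest for 9, at 0.52 above and 0.50 below the group mean. Replicates came from separate mice, so that the p-values measure the spread between mice. DEGs had a false discovery rate under 0.05 and at least a 2-fold difference in edgeR's quasi-likelihood test, Benjamini-Hochberg adjusted over all genes tested. Whether fewer cells of a type or less RNA per cell lies behind a level cannot be told apart in whole glands.

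Since Eomes and Tbx21 encode T-box transcription factors, the promoter windows of the 10 genes were searched for a T-box core, TCACAC, on either strand (GTGTGA when read on the gene's strand). RefSeq windows from 250 bases before to 50 bases after the gene start (GRCm38.p6) were found for 8 of the 10 genes, and not for Ccl5 and Ctsw. The core was in the windows of 4 of the 8, Gzmb, Gzmk, Nkg7 and Ncr1. Of all 27025 genes with a window, 16.4% held it, as did 14.5% of all 32851 windows. The 4 windows are shown on the gene's strand with the core in capitals, because they hold the letters that the 2 factors of the group are known to recognise. They lie at chr14:56262285-56262584 on the minus strand (Gzmb), chr13:113180916-113181215 on the minus strand (Gzmk), chr7:43436888-43437187 on the plus strand (Nkg7) and chr7:4337465-4337764 on the plus strand (Ncr1, the first of its entries).
Gzmb: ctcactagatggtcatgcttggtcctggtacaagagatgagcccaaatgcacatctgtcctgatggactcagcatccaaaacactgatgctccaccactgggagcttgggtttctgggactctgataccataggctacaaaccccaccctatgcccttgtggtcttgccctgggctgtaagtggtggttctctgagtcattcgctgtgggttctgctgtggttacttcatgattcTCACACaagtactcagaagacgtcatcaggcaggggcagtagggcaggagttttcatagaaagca
Gzmk: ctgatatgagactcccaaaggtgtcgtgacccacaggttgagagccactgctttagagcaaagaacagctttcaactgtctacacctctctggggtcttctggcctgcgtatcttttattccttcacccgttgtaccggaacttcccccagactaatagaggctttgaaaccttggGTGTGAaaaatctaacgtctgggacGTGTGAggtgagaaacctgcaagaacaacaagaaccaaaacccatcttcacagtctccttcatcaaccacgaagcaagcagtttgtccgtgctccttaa
Nkg7: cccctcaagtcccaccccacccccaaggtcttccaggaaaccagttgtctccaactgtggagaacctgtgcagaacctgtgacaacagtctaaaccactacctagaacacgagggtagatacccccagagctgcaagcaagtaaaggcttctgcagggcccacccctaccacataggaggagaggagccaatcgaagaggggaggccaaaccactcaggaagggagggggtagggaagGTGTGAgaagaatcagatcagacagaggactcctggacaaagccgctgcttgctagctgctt
Ncr1: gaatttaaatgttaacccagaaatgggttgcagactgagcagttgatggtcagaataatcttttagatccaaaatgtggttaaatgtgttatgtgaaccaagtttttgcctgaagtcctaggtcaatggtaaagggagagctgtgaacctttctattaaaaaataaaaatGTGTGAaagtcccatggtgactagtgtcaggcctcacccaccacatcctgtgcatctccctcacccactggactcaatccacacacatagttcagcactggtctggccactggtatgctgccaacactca
The core began 15 bases before the RefSeq start of Gzmb and 12 before that of Nkg7. In Gzmk it began 74 and 49 bases before the RefSeq start, and in Ncr1 80 bases before. The gene spans printed below come from GENCODE, and their starts differ from these. The Gzmk window lies well inside the span of its gene, and the Nkg7 core lies inside the span of Nkg7. The letters TGTGGT, the core bound by RUNX factors, on either strand were in the windows of 5 of the 8 genes (Gzma, Gzmb, Ncr1, Nkg7 and Prf1) and in those of 18.9% of all genes. A run of letters is a description of the window and shows no binding.

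Granule proteins came first in the comparison of strains. Prf1 (ENSMUSG00000037202, chr10:61297833-61304680, plus strand, GRCm38) encodes perforin, the pore-forming protein. Its counts in BALB/c mice were 0, 1 and 0 at 2M, 10, 1 and 26 at 4M, and 11, 2 and 4 at 6M. In NOD.H-2b mice they were 34, 98 and 41, then 83, 97 and 100, then 100, 67 and 100. The strains did not overlap at any age. At 2M the pooled ratio of NOD.H-2b to BALB/c, scaled for library size, was 150 (95% exact interval 26.5 to 5950, for counting error only), since a single BALB/c count stood below the line. At 4M the log2 fold change was 2.92 ± 0.59 (SE, n = 3 per group; adjusted p = 0.0045, edgeR's quasi-likelihood test, Benjamini-Hochberg adjusted), and at 6M it was 3.96 ± 0.39 (adjusted p = 1.86e-05).

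Gzma (ENSMUSG00000023132, chr13:113093825-113100981, minus strand) encodes granzyme A, a protease with trypsin-like specificity. BALB/c mice had 1, 7 and 0 counts at 2M, 4, 11 and 49 at 4M, and 13, 7 and 3 at 6M. NOD.H-2b mice had 45, 133 and 69, then 63, 55 and 94, then 84, 40 and 93. The ranges were apart at each age, but at 4M the highest BALB/c mouse, replicate 3, came close to the lowest NOD.H-2b mouse. There the difference of 1.78 ± 0.70 (log2, SE) was not called (adjusted p = 0.0777 in the same edgeR test). Without BALB/c 4M replicate 3 it was 3.04 and was called (adjusted p = 0.00315). At 2M and 6M it was 4.71 ± 0.77 and 3.22 ± 0.44 (adjusted p = 0.00135 and 0.000176).

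Gzmb (ENSMUSG00000015437, chr14:56258838-56262260, minus strand) encodes granzyme B, which cuts after aspartate and can start apoptosis. In NOD.H-2b mice it was level with Gzmk at 2M and the scarcest of the 10 genes at 4M and 6M, with 19, 12 and 17 counts at 2M, 19, 8 and 14 at 4M, and 23, 6 and 13 at 6M. BALB/c mice had 0, 0 and 4, then 9, 2 and 2, then 1, 0 and 4. The strains overlapped at 4M only, where 1 BALB/c mouse exceeded the lowest NOD.H-2b mouse. Gzmb was called at 2M (3.32 ± 0.83, adjusted p = 0.0077) and had too few counts to be tested at 4M and 6M. The pooled ratios there were 2.98 (1.56 to 6.05) and 8.05 (3.19 to 26.1).

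Gzmk (ENSMUSG00000042385, chr13:113171608-113225908, minus strand) encodes granzyme K, which marks memory CD8 T cells and some NK cells. It had 0 counts in all 6 BALB/c mice of 2M and 6M, and 4, 0 and 7 counts at 4M. In NOD.H-2b mice the counts were 11, 14 and 23 at 2M, 40, 33 and 25 at 4M, and 58, 39 and 29 at 6M. Against a floor of 3 counts over the BALB/c group, the 2M difference of Gzmk was at least 13.9-fold. The 6M difference was at least 40.2-fold, again higher in NOD.H-2b mice. Its difference at 4M was 3.06 ± 0.61 (adjusted p = 0.00272). On the opposite strand Gzmk overlaps Esm1, and the strand setting of the counting was not given in the sources used here, so reads of both genes may not be separated.

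Nkg7 (ENSMUSG00000004612, chr7:43437073-43438249, plus strand) encodes a granule membrane protein needed for degranulation. Its counts were 6, 2 and 1 in BALB/c mice at 2M, against 45, 125 and 63 in NOD.H-2b mice. At 4M they were 3, 15 and 49 against 194, 171 and 135, and at 6M 15, 0 and 4 against 222, 134 and 168. The differences were 4.46 ± 0.59, 2.87 ± 0.62 and 4.79 ± 0.49 at the 3 ages, all called (adjusted p of 0.000171, 0.0091 and 3.62e-05).

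Ctsw (ENSMUSG00000024910, chr19:5465043-5468507, minus strand) encodes cathepsin W, a cysteine protease of NK and CD8 T cells. Counts in BALB/c mice were 6, 11 and 3 at 2M, 13, 18 and 75 at 4M, and 10, 17 and 9 at 6M. NOD.H-2b mice had 84, 199 and 157, then 420, 268 and 205, then 404, 207 and 310. The differences of 4.26 ± 0.45, 3.04 ± 0.54 and 4.54 ± 0.36 were called at the 3 ages. Ctsw overlaps Fibp on the opposite strand, with the same uncertainty as for Gzmk.

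Ncr1 (ENSMUSG00000062524, chr7:4337724-4345164, plus strand) encodes NKp46, an activating receptor that marks NK cells and other innate lymphoid cells. BALB/c mice had 5, 5 and 6 counts at 2M, 6, 10 and 60 at 4M, and 30, 6 and 0 at 6M. NOD.H-2b mice had 66, 146 and 79, then 108, 115 and 88, then 193, 108 and 150. No mouse of one strain reached the range of the other at the same age. The log2 fold changes were 3.98 ± 0.40, 2.04 ± 0.63 and 3.73 ± 0.59 by age, each of them called.

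The T-box transcription factors Eomes and Tbx21 followed. Eomes (ENSMUSG00000032446, chr9:118478212-118486132, plus strand) acts in NK cells and memory CD8 T cells, and had 4, 8 and 0 counts in BALB/c mice at 2M, 1, 6 and 34 at 4M, and 5, 1 and 2 at 6M. In NOD.H-2b mice it had 30, 122 and 58, then 215, 92 and 83, then 244, 131 and 150. It overlaps an antisense gene, Gm33460, whose reads may not be separated. Tbx21 (ENSMUSG00000001444, chr11:97098071-97115331, minus strand) encodes T-bet, which also directs type 1 helper T cells. BALB/c mice had 1, 1 and 3 counts of it at 2M, 5, 1 and 12 at 4M, and 2, 3 and 0 at 6M, against 20, 92 and 47, then 146, 69 and 78, then 183, 81 and 152. Both genes had their largest strain difference at 6M, of 5.93 ± 0.35 for Eomes and 6.22 ± 0.54 for Tbx21 (adjusted p of 7.68e-07 and 8.12e-06 in the edgeR test). Their values at 2M were 3.91 ± 0.81 and 4.72 ± 0.71, and at 4M 3.21 ± 0.82 and 3.95 ± 0.53.

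Ccl5 (ENSMUSG00000035042, chr11:83525778-83530518, minus strand) encodes a chemokine that attracts T cells and monocytes. It had the most counts of the 10 genes in each group, with 17, 22 and 9 in BALB/c mice at 2M, 60, 25 and 180 at 4M, and 32, 24 and 30 at 6M. NOD.H-2b mice had 197, 477 and 280, then 720, 419 and 424, then 691, 512 and 487. The ranges were apart at each age, and the differences were 4.12 ± 0.42, 2.56 ± 0.60 and 4.19 ± 0.22, all called.

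**Figure D1:**
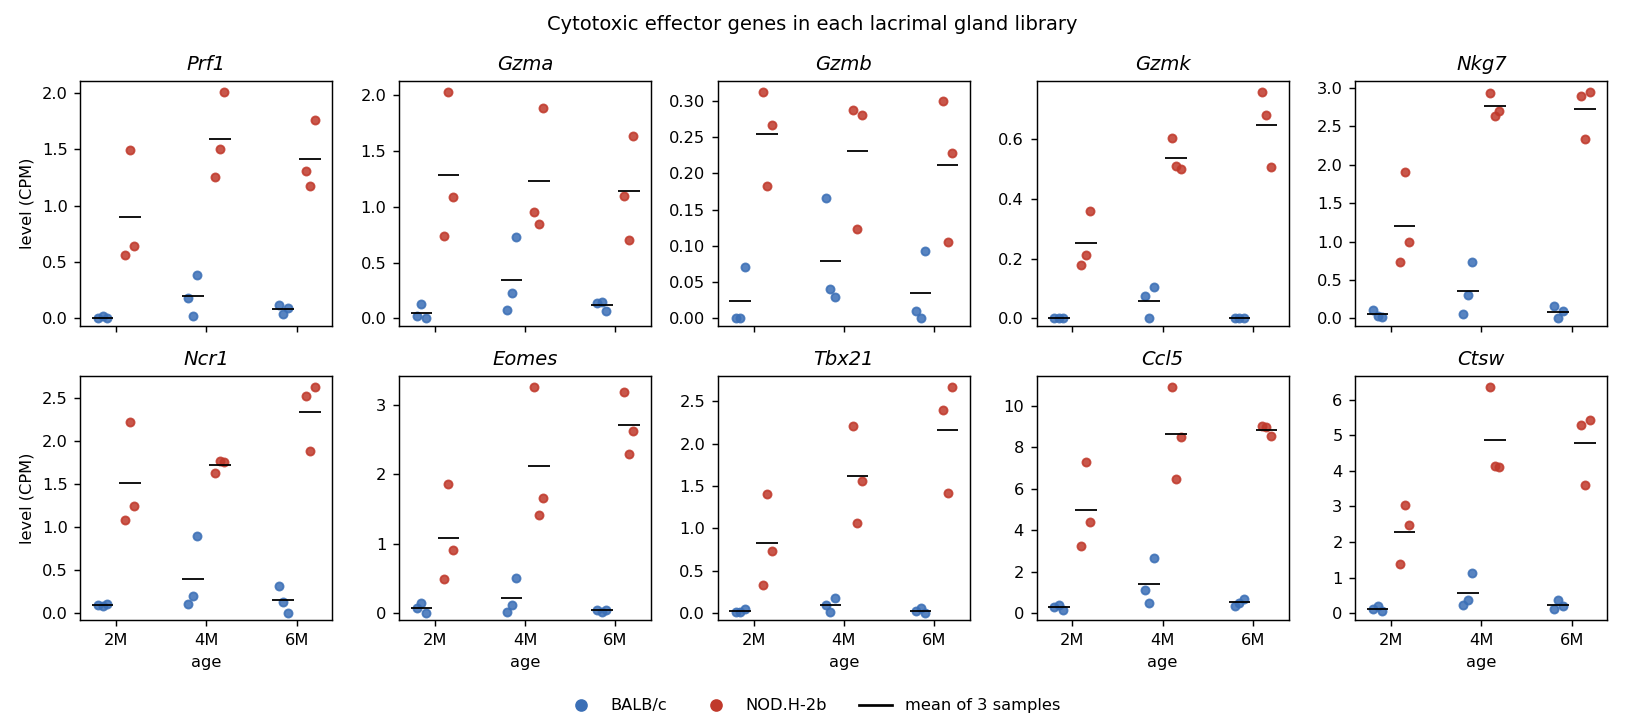
Level of each of the 10 genes (vertical axis, CPM, with a scale of its own in each panel) by age (horizontal axis) in 9 BALB/c and 9 NOD.H-2b libraries. Points are libraries and black bars are means of 3 samples. The NOD.H-2b points lie above the BALB/c points of the same age in each panel except Gzmb at 4M, and the highest BALB/c point at 4M in most panels is replicate 3.

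At 2M, 10 of 10 genes were tested and 10 were upregulated DEGs in NOD.H-2b mice, beside 12.0% of all 17200 genes tested. At 4M, 8 of 9 tested were upregulated, beside 15.6% of 17722 genes, and without NOD.H-2b 4M replicate 1 the number was 5. At 6M, 9 of 9 were, beside 18.8% of 17750. A gene this low in BALB/c mice passes the filter on counts only through its NOD.H-2b libraries, so these counts describe the genes and lend no support of their own. In the fit of all 18 mice, 10 of 10 were upregulated on average over the ages, beside 17.6% higher and 5.19% lower of 19117 genes. The averaged log2 fold changes of the 9 genes other than Gzmk ran from 2.54 ± 0.52 for Gzmb to 4.94 ± 0.39 for Tbx21, with Prf1 at 4.55 ± 0.40. With its 2M and 6M BALB/c groups, which held 0 counts, set to the floor of 3 counts, the average for Gzmk was 4.07. Their median was 3.97, the same with Gzmk at its bound, against -0.02 over all genes tested. At 2M the median over the 10 genes was 4.36, or 4.19 with Gzmk at its bound.

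**Figure D2:**
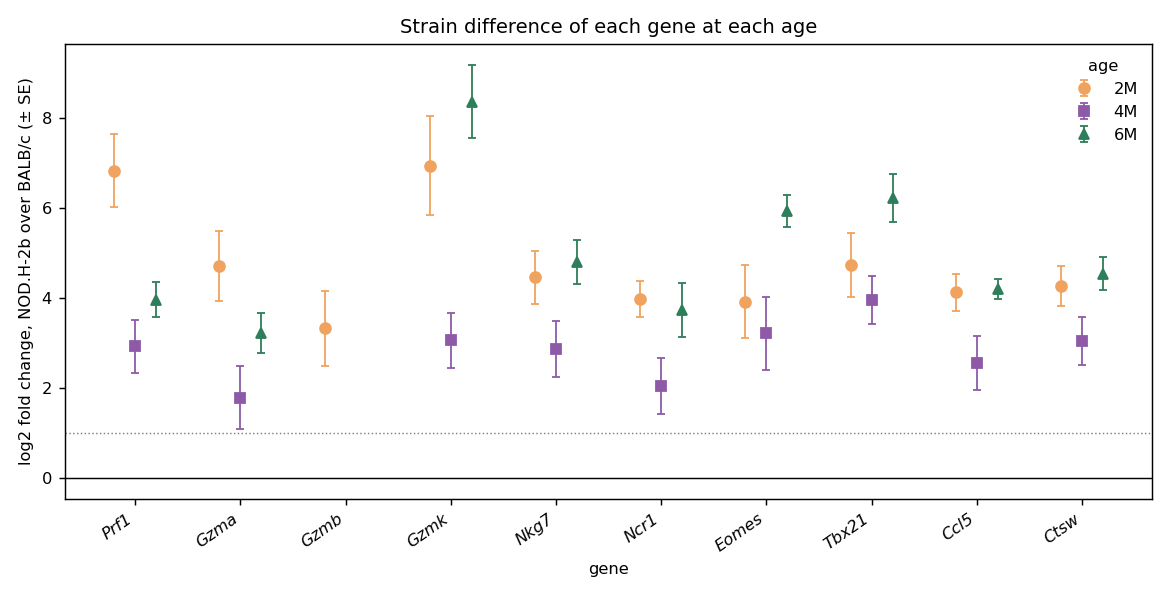
Log2 fold change of NOD.H-2b over BALB/c (vertical axis) for each gene (horizontal axis) at 2M, 4M and 6M, with bars of 1 SE from the edgeR fit of 6 mice at each age. The dotted line marks a 2-fold difference. Each gene has its smallest value at 4M except Gzmb, which was tested at 2M only. The fitted values of Gzmk at 2M and 6M rest on BALB/c groups with no count, and that of Prf1 at 2M on a BALB/c group with 1 count.

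Whether the strain difference itself moved with age was tested by interaction terms in the fit of 18 mice. From 2M to 4M, 0 of 10 genes were called, beside 1.67% of all genes, with 3 at an unadjusted p under 0.05 in edgeR and 1 called by DESeq2 (Prf1). Those 3 were Prf1 (-3.88 ± 1.3 on the log2 scale, adjusted p = 0.13), Gzma (-2.90 ± 1.1, adjusted p = 0.202) and Gzmk, whose fitted term rests on a 2M BALB/c group with 0 counts and has no size that can be read. The Prf1 term rests on a 2M BALB/c group with 1 count in all, so its size is uncertain too. Gene by gene the fitted terms lay below 0 for all 10, and without BALB/c 4M replicate 3 those of Eomes and Tbx21 turned to 0.99 and 0.02. From 2M to 6M, 0 of 10 were called, beside 16.1% of all genes, with 0 at an unadjusted p under 0.05 and 0 called by DESeq2. The smaller strain differences at 4M were therefore not shown to differ from those at 2M.

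In BALB/c mice alone, only 2 of the 10 genes had enough counts to be tested between 2M and 4M, and 0 were called beside 2.37% of all genes. They were Ccl5 (2.31 ± 0.65, adjusted p = 0.067) and Ctsw (2.25 ± 0.66, adjusted p = 0.0522), both at an unadjusted p under 0.05 and both called by DESeq2. Without BALB/c 4M replicate 3 they stood at 1.47 and 1.30 and were not called. Without BALB/c 4M replicate 1 or 2, 4 and 2 genes were called. From 4M to 6M, 0 of 3 tested were called (0.0361% of all genes), with 1 at an unadjusted p under 0.05, and from 2M to 6M 0 of 2 (1.68% of all genes), with 0 at that p. DESeq2 called 0 in both.

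Age was then compared within NOD.H-2b mice. From 2M to 4M, Nkg7 was the 1 gene of 10 called, 2.27-fold higher (log2 1.18 ± 0.32, adjusted p = 0.0412 in the edgeR test), beside 5.97% of all genes. Gzmk and Ctsw, with log2 changes of 1.09 ± 0.37 and 1.09 ± 0.31, were not called (adjusted p of 0.0762 and 0.0528 in the same test). From 2M to 6M, 3 of 10 were called, beside 10.9% of all genes. These were Gzmk (1.35 ± 0.37, adjusted p = 0.0181), Nkg7 (1.15 ± 0.32, adjusted p = 0.0228) and Ctsw (1.04 ± 0.29, adjusted p = 0.0249).

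Eomes (1.29 ± 0.43), Tbx21 (1.36 ± 0.49) and Ccl5 (0.81 ± 0.28) were not called between 2M and 6M. Their adjusted p in the edgeR test were 0.0507, 0.0652 and 0.0626. Prf1 (0.62 ± 0.38) and Ncr1 (0.61 ± 0.28) were not called either. The granzyme genes Gzma (-0.19 ± 0.43) and Gzmb (-0.25 ± 0.46) had values on the other side of 0 with errors larger than the values. Mean levels of Gzma were 1.28 ± 0.665, 1.23 ± 0.568 and 1.14 ± 0.467 CPM at the 3 ages (SD, n = 3), whereas those of Gzmk were 0.252 ± 0.0965, 0.538 ± 0.058 and 0.649 ± 0.128. From 4M to 6M, 0 of 10 genes were called in edgeR, beside 0.00555% of all genes, with 1 at an unadjusted p under 0.05 and 0 called by DESeq2. These counts moved with single libraries. From 2M to 6M, 7 genes were called without NOD.H-2b 2M replicate 2, 0 without 2M replicate 1 or 6M replicate 1, and 1 without 2M replicate 3 or 6M replicate 3. From 2M to 4M, 4 were called without 2M replicate 2 and 0 without any other 1 of the 6 mice. Whether the genes differed from each other in their change with age was not tested here.

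Between genes, levels were compared per length, as RPKM (CPM divided by the exon length in kilobases). In 6M NOD.H-2b mice Ccl5 led with 9.20 ± 0.274 RPKM (SD, n = 3), followed by Nkg7 (2.99 ± 0.368) and Ctsw (2.53 ± 0.534). Ncr1 (1.52 ± 0.26) and Gzma (1.14 ± 0.464) came next. The other five were Tbx21 (0.867 ± 0.264), Eomes (0.650 ± 0.109), Prf1 (0.546 ± 0.118), Gzmk (0.467 ± 0.092) and Gzmb (0.147 ± 0.0689). The steps from Ccl5 to Nkg7, from Ctsw to Ncr1 and from Gzmk to Gzmb exceeded the SD of both genes, and the other neighbours in this order differed by less than the larger SD of the pair. In 2M NOD.H-2b mice Ncr1 (0.984 ± 0.401), Gzma (1.27 ± 0.661), Ctsw (1.21 ± 0.445) and Nkg7 (1.32 ± 0.67) lay together, below Ccl5 at 5.17 ± 2.16.

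Markers of the cells that could hold these transcripts were also higher in NOD.H-2b mice, but their ratios from 2M to 6M differed between lists. The summed level of 7 NK cell markers was 0.771 to 2.98 CPM over all BALB/c mice. In NOD.H-2b mice it went from 9.35 ± 4.06 (2M) to 13.3 ± 1.65 (4M) and 16.2 ± 4.24 (6M; SD, n = 3), a ratio of 1.73 from 2M to 6M. The sum of the 10 cytotoxic genes went from 14.6 ± 6.41 to 25.3 ± 4.96 and 27.0 ± 3.35 CPM, a ratio of 1.85. The summed level of 8 T cell markers had a ratio of 4.66, from 13.0 ± 7.92 to 60.6 ± 8.61 CPM, and that of the CD8 T cell markers Cd8a and Cd8b1 a ratio of 4.83, from 1.30 ± 0.844 to 6.28 ± 1.96. B cell markers (8 genes) went from 15.7 ± 15.5 to 352 ± 125 CPM.

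On average over the ages, 7 of 7 NK cell, 8 of 8 T cell, 2 of 2 CD8 T cell, 4 of 4 gamma delta T cell and 8 of 8 B cell markers were higher in NOD.H-2b mice. From 2M to 6M in NOD.H-2b mice, 7 of 8 T cell and 8 of 8 B cell markers were called higher, against 1 of 7 NK cell markers (Klrd1, 1.00 ± 0.33, adjusted p = 0.0427 in the edgeR test). Of all genes tested, 17.6% were higher on average over the ages and 10.9% from 2M to 6M. BALB/c 4M replicate 3 also had the highest sums of its group for T cell (3.74 CPM), NK cell (2.98 CPM) and CD8 T cell markers (0.641 CPM). Summed levels of other marker lists differed between strains as well at 2M, the age at which all 10 genes were called. The summed mast cell and basophil markers were 16.3 to 18.1 CPM in BALB/c and 28.9 to 31.8 CPM in NOD.H-2b mice of 2M, and the summed acinar and ductal markers, which identify the gland itself, 13400 to 22500 and 7270 to 11300 CPM. Over all 18 libraries they ranged from 16.3 to 34.6 and from 6120 to 24800 CPM. The strain order of the acinar and ductal sum was not kept at 4M. Its mean there was 17400 ± 8330 CPM for NOD.H-2b against 13100 ± 656 for BALB/c (SD, n = 3). At 6M it was 12000 ± 5700 against 13800 ± 3330. From 2M to 4M in NOD.H-2b mice this sum rose 1.99-fold. Its gene Scgb2b12 had a fitted 4.28-fold rise (not called), and its other genes ran from 0.777-fold (Krt8) to 1.01-fold (Krt7). The amount of gland tissue was not tested. The part of cell makeup in the strain difference was not tested.

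**Figure D3:**
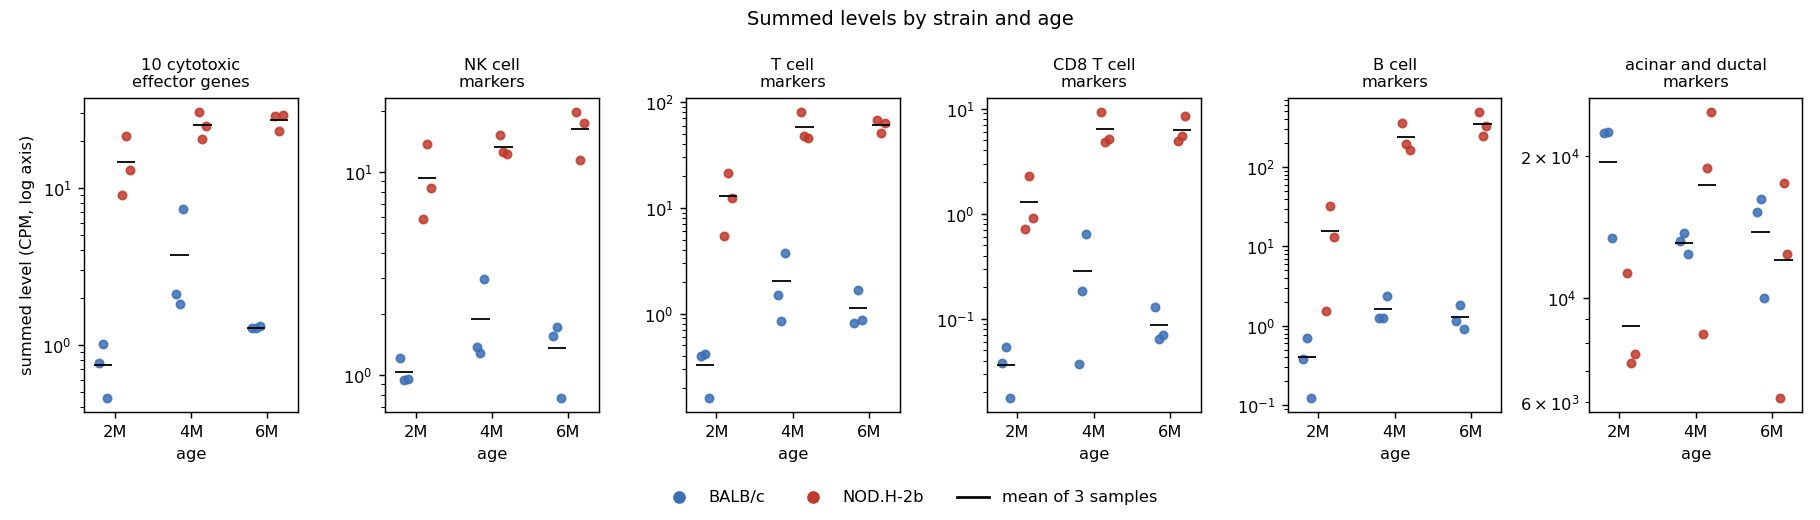
Summed level of the 10 cytotoxic genes and of 5 marker lists (vertical axes, CPM on a log axis with a scale of its own in each panel) by age (horizontal axis). Points are libraries and black bars are means of 3 samples. In NOD.H-2b mice the ratio of the 6M to the 2M mean is 1.85 for the cytotoxic genes, 1.73 for NK cell, 4.66 for T cell and 22.4 for B cell markers.

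Each gene was then set against the T cell receptor complex genes Cd3d, Cd3e and Cd3g of the same library. In NOD.H-2b mice, Gzma had 21.9 ± 5.18 counts (SD, n = 3) per 100 counts of these genes at 2M, and then 4.81 ± 3.14 (4M) and 3.72 ± 1.19 (6M). Prf1 went from 15.5 ± 5.19 to 6.16 ± 2.83 and 4.70 ± 0.874, and Ncr1 from 27.8 ± 11.2 to 6.52 ± 1.99 and 7.77 ± 0.488. Tbx21 went from 12.8 ± 0.866 to 5.72 ± 1.23 and 7.02 ± 1.21. On the log2(CPM + 0.1) scale the 3 mice of 2M were compared with the 6 older mice by a two-sided exact permutation test for each gene, with 84 arrangements and no adjustment over the 10 genes. All 10 were lower in the older mice, with differences of -1.02 (Tbx21) to -2.42 (Gzmb). This age comparison was added after the data were seen. The 10 ratios share 1 denominator, so they are not independent results. From 2M to 6M, Cd3d rose 3.71-fold, Cd3g 4.7-fold and Cd3e 5.1-fold, more than any of the 10 genes. The exact permutation p was 0.0119, the smallest possible, for 9 genes and 0.0238 for Gzmk. Gzmk had p = 0.0595 with a pseudocount of 0.01, and p = 0.0714 in the exact permutation test without NOD.H-2b 2M replicate 1 or without 2M replicate 3.

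With the NK receptor genes Klrd1, Klrk1 and Klre1 as the reference, chosen after the data were seen, fewer genes moved. In the same exact permutation test, Gzmb was lower in the older mice (-0.87, p = 0.0357), and Nkg7 (0.52, p = 0.0238), Tbx21 (0.53, p = 0.0238) and Ctsw (0.39, p = 0.0476) were higher. For the other 6 genes p was 0.0714 to 0.821, with Prf1 at 0.08, Gzma at -0.77 and Ncr1 at -0.25. Nkg7 stood at 21.7 ± 2.82, 33.0 ± 1.67 and 27.5 ± 3.25 counts per 100 counts of the NK genes at the 3 ages. Gzma stood at 22.8 ± 3.23, 14.9 ± 7.86 and 11.2 ± 3.54. Ccl5, at 90.5 ± 3.95, 102 ± 18.1 and 90.8 ± 22.8, kept within its spread.

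**Figure D4:**
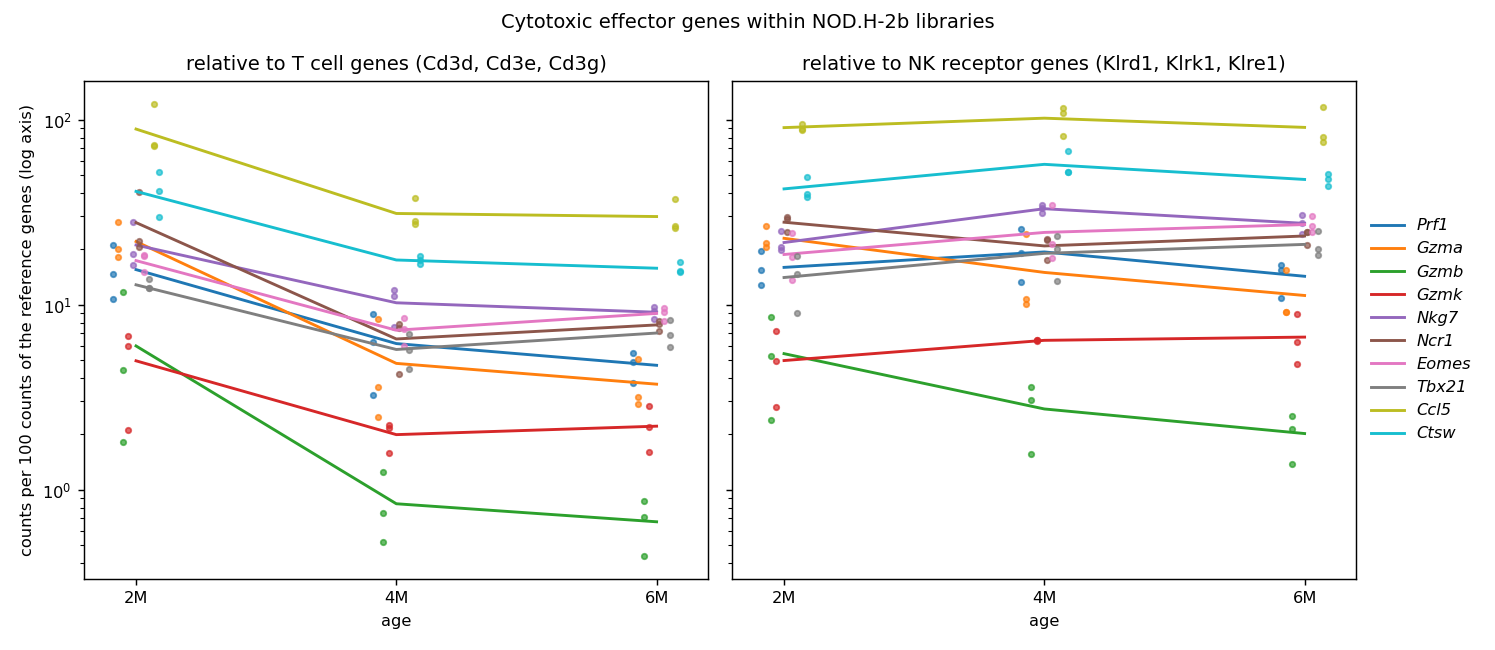
Counts of each gene per 100 counts of Cd3d, Cd3e and Cd3g (left) or of Klrd1, Klrk1 and Klre1 (right) in the 9 NOD.H-2b libraries, on a log axis, by age. Points are libraries and lines join the means of 3 mice. On the left the mean of each gene is lower at 4M and 6M than at 2M. On the right Gzma goes from 22.8 to 11.2 between 2M and 6M and Nkg7 from 21.7 to 27.5.

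Between strains the ratio to the Cd3 genes rests on few BALB/c counts, with 24 of the 3 Cd3 genes together in the 2M mice. In pooled counts with no pseudocount, the ratio was lower in NOD.H-2b than in BALB/c mice at each of the 3 ages for 6 genes, Ccl5, Ctsw, Gzma, Gzmb, Ncr1 and Nkg7, and at 4M for all 10. It ran the other way for Prf1 at 2M, for Eomes and Tbx21 at 6M, and for Gzmk at 2M and 6M, where BALB/c mice had 0 Gzmk counts. Gzma, for example, had 34.4 counts per 100 Cd3 counts in 4M BALB/c mice (95% exact interval 25.5 to 45.9) and 4.07 (3.53 to 4.67) in 4M NOD.H-2b mice. On the log2(CPM + 0.1) scale, averaged over ages, the differences were -0.91 (Ctsw) to -3.17 (Gzmb), and the two-sided exact permutation test within ages (8000 arrangements) gave p of 0.00025, the smallest possible, to 0.00425. The value of Gzmk on that scale is set by the pseudocount, since 2 of the 3 BALB/c groups held 0 counts, and gives no direction. The sizes of the other genes also move with the pseudocount, since BALB/c counts were few. The 2M BALB/c mice together held 1 count of Prf1, 4 of Gzmb and 5 of Tbx21. The 10 differences ran from -0.58 to -2.72 with a pseudocount of 0.01 and from -0.1 to -2.17 with a pseudocount of 1. With a pseudocount of 0.01, 6 of the 10 kept p under 0.05 and Gzmk, Nkg7, Eomes and Tbx21 did not, and with a pseudocount of 1 Ccl5 did not. With the NK genes as the reference, 3 had p under 0.05 on the log scale, Gzmb, Gzmk and Ctsw. Of these, Gzmb (-1.79) was lower in NOD.H-2b mice at each age in pooled counts too. The pooled ratio of Ctsw went against its log-scale sign at 4M. That of Gzmk went against its log-scale sign at each of the 3 ages, so its p gives no direction.

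Genes that work with the 10 were read from lists of related genes, as the strain difference averaged over ages. Among 14 other granule genes, 8 were tested and 5 were higher in NOD.H-2b mice, with a median of 1.56. They were led by Cst7 (3.80 ± 0.34), which encodes a cathepsin inhibitor that acts on granzyme processing, Slamf7 (3.16 ± 0.18), a receptor on NK cells and plasma cells, and Srgn (2.73 ± 0.18), the proteoglycan that packs granules. The remaining granzyme genes were barely seen. Gzmd, Gzme, Gzmf, Gzmg and Gzmn had 0 counts in all 18 libraries, Gzmc had at most 3 in any, and Gzmm was not called (0.38 ± 0.24, adjusted p = 0.172 in the edgeR test). Cst7 was low in 2M NOD.H-2b mice, at 0.125 ± 0.0378 CPM, and stood at 1.65 ± 0.556 at 4M and 1.61 ± 0.345 at 6M (SD, n = 3).

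Of 9 genes of granule exocytosis, 3 were higher and 6 not called, with a median of -0.10. The 3 were Stx11 (4.07 ± 0.30), a syntaxin for granule fusion, Coro1a (3.82 ± 0.22), an actin regulator of leukocytes, and Unc13d (3.46 ± 0.27), which primes granules. Of 8 genes for death ligands and cytokines, 6 were higher, with a median of 3.71. Ltb (4.82 ± 0.45) and Tnf (4.01 ± 0.26) were among them. The leading one, Ifng, which encodes interferon gamma, rested on at most 1 count in any BALB/c library and 28 in any NOD.H-2b library.

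Of 12 regulators, 11 were tested and 7 were higher, with a median of 3.10. Stat4 (5.65 ± 0.48) carries the interleukin 12 signal, Ikzf3 (5.19 ± 0.36) acts in B and T cells, and Tcf7 (3.86 ± 0.28) in naive and memory T cells. Of 10 cytokine receptor genes, 8 were higher, with a median of 3.37. Il21r (5.64 ± 0.35), Il2rb (4.32 ± 0.34) and Il2rg (3.74 ± 0.23) led, the last being the chain shared by several interleukin receptors. Of 10 chemokine and chemokine receptor genes, 9 were tested and 9 were higher, with a median of 3.30. Xcl1 (4.72 ± 0.42), which attracts cross-presenting dendritic cells, Ccr1 (4.55 ± 0.41) and Cxcr3 (4.15 ± 0.37), the receptor for interferon-induced chemokines, led. Cst7, Stat4, Xcl1, Ccr1 and Cxcr3 had too few counts to be tested in any BALB/c age comparison. Their sizes therefore rest on BALB/c groups with few counts. No gene of these 6 lists was called lower (0), and these counts stand beside the 17.6% and 5.19% of all genes given above.

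Within groups, the 10 genes varied together in part. Over the 45 pairs, the correlation of their deviations from the group mean in 18 mice had a median r of 0.495, from -0.506 (Gzmb with Ncr1) to 0.832 (Eomes with Ctsw). Among 13475 other genes with a mean of at least 1 CPM, those whose deviations were most like the mean of the 10 were Cbfa2t3 (r = 0.936), Sh2d2a (r = 0.934), Il21r (r = 0.930), Csf2rb (r = 0.930) and H2-Q6 (r = 0.924). These values describe 18 libraries that share groups and depth, and no test was made on them.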

How the data were processed

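The deposited table held raw counts per gene. The authors had depleted rRNA, sequenced paired-end libraries, trimmed reads with cutadapt, mapped them with STAR (GRCm38) and counted with HTSeq. Versions, annotation, strandedness and the handling of multi-mapped reads were not given in the sources used here. A second table of normalized values was not used.

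The counts were tested as deposited in R 4.3.3 with edgeR 4.0.16 (TMM, filterByExpr, robust quasi-likelihood test, Benjamini-Hochberg adjustment over all genes tested). Strains were compared on the 6 mice of each age, ages on the 6 mice of each strain, and averages and strain-by-age terms in 1 fit of 18 mice. A call needed an adjusted p under 0.05 and, outside the strain-by-age terms, a 2-fold difference. SE is the log2 fold change divided by the square root of F. CPM used TMM library sizes of all 18 mice. Lengths and coordinates come from GENCODE (GRCm38), and promoters from RefSeq. For genes at 0 a floor of 3 counts over the group gave bounds, and exact intervals (95%) cover counting error only.

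The genes and lists were chosen with earlier results of these data known. Named genes are the 10, up to 3 per related list with the largest called averaged difference, any called against its list, and the 5 most like the 10. Marker lists are T cell, CD8, CD4, gamma delta T, NK, B, plasma, macrophage, plasmacytoid dendritic, mast, platelet, neutrophil, erythroid, gland and muscle genes. Alternatives were DESeq2 1.42.0, its size factors, other filters, no fold threshold, a replicate block, 1 fit of 18 mice, each mouse left out, and other pseudocounts and reference genes. Ratios to Cd3 or NK genes were compared by two-sided exact permutation of log2(CPM + 0.1), unadjusted. The NK reference and the age comparison of ratios within NOD.H-2b mice were added after seeing the data. Scripts were tested on simulated data.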

Additional observations from a re-analysis of the deposited data

How the results depend on the processing

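The genes called at 2M, at 6M and on average over ages kept direction and call under each alternative that tested them, and no gene reversed at 4M. At 4M, where 8 were called, 5 were called with no filter on low counts, 2 with at least 10 counts in every sample, and 5 (without NOD.H-2b 4M replicate 1) to 9 (without BALB/c 4M replicate 3) with a mouse left out. Requiring 10 counts in every sample left 1 at 6M and tested none of the 10 at 2M or in the 18 mice, because it removes genes low in BALB/c mice. DESeq2 called 1 strain-by-age term from 2M to 4M.

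No label says that a replicate number marks a shared litter or day. Most same-numbered mice did not deviate together (5 of 45 pairs over 0.1, median r 0.018, range -0.339 to 0.344). The highest r was that of replicate 1 in NOD.H-2b mice of 4M and 6M, and the lowest that of replicate 1 in NOD.H-2b mice of 2M and 4M. With the number as a replicate block, 0 genes were called in NOD.H-2b mice from 2M to 4M and 0 from 2M to 6M, and no other count changed. From 2M to 4M, DESeq2 called 2, the fit of 18 mice 0, and fits without 1 mouse 0 to 4, the highest without NOD.H-2b 2M replicate 2. From 2M to 6M, DESeq2 called 5 and fits without 1 mouse 0 to 7, with 0 without 2M replicate 1 or 6M replicate 1 and 7 without 2M replicate 2. In BALB/c mice from 2M to 4M, 6 were called with no filter, 2 by DESeq2, 2 in the fit of 18 mice and 0 to 4 with a mouse left out, and from 4M to 6M 2 with no filter.

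Relative to Cd3 genes, 10 strain differences had p under 0.05, and 6 at a pseudocount of 0.01. Within NOD.H-2b mice 10 did, and 9 (without Gzmk) at a pseudocount of 0.01 or without 2M replicate 1 or 3. With NK genes as reference, 3 strain differences did, with Gzmk against the pooled counts at each age and Ctsw against them at 4M. Within NOD.H-2b mice 4 did (1 lower, 3 higher).

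Changes not called turned sign when a mouse was left out. The strain-by-age term from 2M to 4M ranged from -1.68 to 0.99 for Eomes and -1.45 to 0.02 for Tbx21. In NOD.H-2b mice from 2M to 4M, Gzma ranged from -0.53 to 0.42, Gzmb from -0.38 to 0.17 and Ncr1 from -0.03 to 0.57, and from 2M to 6M Gzma from -0.53 to 0.32 and Gzmb from -0.62 to 0.06. The cause was not tested. Gzmb and the BALB/c groups held few counts, which limits what can be read from them.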

Other observations

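Some genes of marker lists outside the comparisons above also moved. From 2M to 6M in NOD.H-2b mice, Itga2b, a platelet and megakaryocyte integrin, fell by 1.18 ± 0.20 on the log2 scale (adjusted p = 0.0026 in edgeR's quasi-likelihood test). Called higher were 3 of 6 plasma cell markers and 1 of 8 macrophage markers, Lyz2 (1.20 ± 0.11, adjusted p = 0.000394 in that test). Of all genes tested there, 10.9% were called higher and 1.55% lower, so 1 of 8 is near the share of all genes. The platelet list had no single direction. From 2M to 4M its gene Ppbp was called higher (2.97 ± 0.68, adjusted p = 0.0234 in the same test), and Pf4 stood at 0.02 ± 0.21. On average over the ages, 7 of 8 macrophage markers and 3 of 4 plasmacytoid dendritic cell markers were higher in NOD.H-2b mice, with medians of 2.04 and 4.03. Neutrophil markers summed to at most 0.711 CPM in any library. The summed level of erythroid markers was 32.7 to 91.4 CPM in NOD.H-2b and 26.2 to 58.8 CPM in BALB/c mice, and that of skeletal muscle markers at most 1.54 CPM. Of the markers tested in the averaged strain comparison, 1 of 1 CD4 T cell, 3 of 6 plasma cell and 1 of 1 neutrophil marker had higher levels in NOD.H-2b mice, with 0 lower. In the same comparison 2 of 5 erythroid markers were higher and 1 lower, 2 of 3 skeletal muscle markers were higher and 1 lower, and 1 of 3 platelet markers was higher and 1 lower. Of 5 mast cell and basophil and 9 acinar and ductal markers, 1 each was lower and 0 higher. Of all genes in the averaged strain comparison, 17.6% were higher and 5.19% lower.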
